A study of Drosophila melanogaster with 9 samples.

Results

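The genes described here encode the vacuolar proton ATPase (V-ATPase), the pump that acidifies cell compartments, in embryos of Drosophila melanogaster. The rule picks them by name and not by measured values, but it was chosen with earlier results of these data known. Every probe set whose single gene symbol in the platform annotation begins with Vha was taken. The probe set with the highest mean over the 9 arrays stands for its gene. This gave 31 genes of 11983 named genes, from 32 probe sets, since Vha16-1 has a further probe set that is described separately. By their subunit names, 11 genes belong to V1, 18 to V0 and 2 to the accessory proteins. The genes of the catalytic A subunit other than Vha68-3 (Vha68-1 and Vha68-2) are not among these probe sets and were not analysed here.

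The V-ATPase has a peripheral sector, V1, which hydrolyses ATP, and a membrane sector, V0, which moves protons through the membrane as its ring of small proteolipid subunits turns. It acidifies lysosomes, endosomes and secretory vesicles, and in epithelia such as the fly's Malpighian tubules it sits in the apical plasma membrane and energises ion transport. Most subunits have a widely expressed gene and further paralogues, many of which are used in the testis, and in flies and mammals transcription factors of the MITF and TFEB family bind and drive V-ATPase genes.

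Total RNA from whole dechorionated embryos was biotin-labelled and hybridised to Affymetrix Drosophila Genome 2.0 arrays, 1 sample per array, in 3 groups of 3 arrays at stages 10 to 13. The first group is homozygous for cbtEP(2)2237E1, an allele of cabut (cbt), which encodes a zinc finger transcription factor, and these embryos were sorted as those lacking GFP from a stock over a CyO balancer that carries twi-eGFP. The control is w1118 (white 1118). In the remaining group 69B-Gal4, a driver used for the epidermis, expresses UAS-Cbt in embryos that the labels call homozygous, so the transgene acts in some of the embryo's cells while the RNA comes from all of them. Each mutant and overexpression sample pooled about 1000 embryos (for w1118 no number was found in the labels), and a driver-only control was not analysed here. The labels do not say whether the 3 samples of a group are separate collections of embryos. The p-values therefore measure only how far these samples differ, which may be technical.

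Facts of the whole array set bear on every value below. The cbt probe set read 6.22, 6.05 and 7.90 on w1118 replicates 1 to 3 (log2 level), 4.25, 4.70 and 3.85 on the mutant arrays, and 3.17, 3.16 and 3.74 on the arrays labelled overexpression, so in that group it goes against the label, and the group is called labelled overexpression throughout. Control replicate 2 stood apart from the other w1118 arrays: over the probe sets with a mean above background it differed from them by 1.12 to 1.14 on average, whereas those 2 arrays differed from each other by 0.35. A level counts as above background where it exceeds the highest Tag control of the same array, a set of probes with no fly target, which lay between 0.58 and 1.20. Spiked-in poly-A RNA averaged 1.91 and 2.42 on w1118 replicates 1 and 3, 3.79 on replicate 2, 3.70 to 3.95 in the mutant and 3.09 to 4.03 in labelled overexpression. The difference between the 3′ and 5′ probe sets of the array's ACTIN control, used as a sign of RNA quality, was 3.18 and 3.36 on w1118 replicates 1 and 3, 4.75 on replicate 2, 3.16 to 3.49 in the mutant and 4.82 to 5.57 in labelled overexpression. On labelled overexpression replicates 1 and 3 the ACTIN 5′ level, 0.59 and 0.71, was below background. The 3′ level differed too, at 9.44 and 9.06 on w1118 replicates 1 and 3 and 6.15 to 6.72 in labelled overexpression, so ACTIN is a limited measure here. The same measure for eIF-4a was higher, not lower, on w1118 replicates 1 and 3 (3.24 and 3.67) than in labelled overexpression (2.53 to 2.84). It was 2.64 on w1118 replicate 2 and 2.86 to 2.92 in the mutant. The mutant thus lay with w1118 replicates 1 and 3 for ACTIN but nearer to labelled overexpression for eIF-4a. For Act5C it ran from 4.03 to 4.82. Fits with the spike-in level as a covariate are given below, and the part of RNA quality in the results was not tested.

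A full pump was represented apart from its catalytic subunit. Of the 31 genes, 18 were above background on all 9 arrays (7 of V1, 9 of V0 and both accessory genes), 8 were above it on some arrays and 5 on none. All 14 measured members of a list of 17 widely expressed V-ATPase genes were above background on every array, against 4 of the 17 further paralogues. These 4 were Vha100-4, VhaM9.7-a, VhaM9.7-c and VhaAC45RP. Each V1 subunit from B to H and each V0 subunit (a, c, c″, d and e) had at least 1 such gene. Vha68-3, the A subunit gene measured, lay between 0.10 and 0.51 and was not above background on any array.

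**Figure D1:**
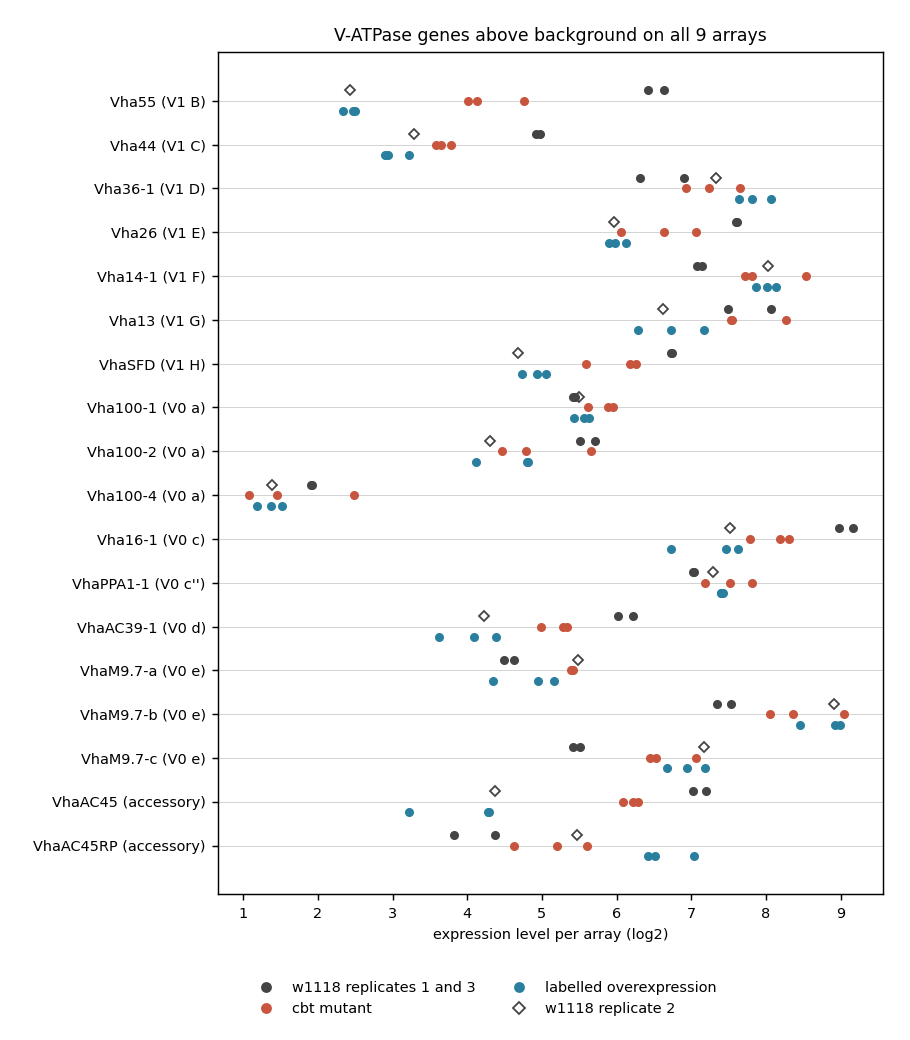
Log2 level (horizontal axis) of the 18 V-ATPase genes above background on all 9 arrays, each point 1 array, w1118 replicate 2 as an open diamond. Levels of different genes are not comparable. For Vha55, w1118 replicate 2 at 2.43 lies among the arrays labelled overexpression (2.33 to 2.49), far from w1118 replicates 1 and 3 at 6.64 and 6.43.

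The widest range over the 9 arrays was that of the V1 gene Vha55 (4.31), followed by the accessory genes VhaAC45 (3.99) and VhaAC45RP (3.21). In the V1 values that follow, the 3 levels of a group are replicates 1, 2 and 3. Vha55 encodes subunit B, the nucleotide-binding partner of the catalytic subunit in the V1 head. Its log2 level was 6.64, 2.43 and 6.43 in w1118, 4.13, 4.76 and 4.01 in the mutant, and 2.47, 2.49 and 2.33 in labelled overexpression. The mutant and labelled overexpression arrays did not overlap, and w1118 straddled both. Labelled overexpression minus mutant was -1.87 (SE 0.99, adjusted p = 0.337), labelled overexpression minus w1118 was -2.73 (SE 0.99, adjusted p = 0.119), and mutant minus w1118 was -0.86 (SE 0.99, adjusted p = 0.889), all from limma over 18769 probe sets. With w1118 replicate 2 left out, these became -1.87 (adjusted p = 0.00374), -4.10 (adjusted p = 5.32e-05) and -2.23 (adjusted p = 0.000843). In bulk RNA, fewer cells that express a gene and less RNA per cell cannot be told apart.

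Vha44 encodes subunit C, which in yeast leaves the complex when V1 and V0 separate. It read 4.92, 3.28 and 4.97 in w1118, 3.65, 3.78 and 3.58 in the mutant, and 3.22, 2.93 and 2.89 in labelled overexpression. Every labelled overexpression array lay below every array of both other groups. The difference was -1.38 from w1118 (SE 0.41, adjusted p = 0.0986) and -0.66 from the mutant (SE 0.41, adjusted p = 0.401). VhaSFD, the subunit H that in yeast regulates the ATPase of free V1, read 6.73, 4.68 and 6.74 in w1118, 6.18, 6.27 and 5.60 in the mutant, and 4.73, 5.06 and 4.94 in labelled overexpression. Its mutant mean of 6.01 ± 0.36 (SD, n = 3) was close to the w1118 mean of 6.05 ± 1.19, and labelled overexpression minus mutant was -1.10 (SE 0.52, adjusted p = 0.295) with no overlap.

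The stalk subunits did not all share that order. Vha26, subunit E of the peripheral stalks, read 7.60, 5.97 and 7.61 in w1118, 7.06, 6.64 and 6.05 in the mutant, and 5.97, 5.90 and 6.13 in labelled overexpression. Vha13, subunit G and the partner of E in those stalks, read 8.07, 6.62 and 7.49 in w1118, 8.27, 7.54 and 7.55 in the mutant, and 6.29, 7.18 and 6.73 in labelled overexpression. For Vha13 the labelled overexpression arrays lay below all mutant arrays, by 1.06 on average (SE 0.40, adjusted p = 0.23), whereas for Vha26 the arrays of these groups overlapped. Vha36-1, subunit D of the central rotor, ran the other way. It read 6.91, 7.33 and 6.32 in w1118, 7.65, 6.93 and 7.24 in the mutant, and 8.07, 7.81 and 7.64 in labelled overexpression, which was 0.99 above w1118 (SE 0.28, adjusted p = 0.0973) with no overlap. Vha14-1, the rotor subunit F, read 7.08, 8.03 and 7.14 in w1118, 8.53, 7.72 and 7.81 in the mutant, and 7.87, 8.02 and 8.13 in labelled overexpression. For Vha14-1, w1118 replicates 1 and 3 were the lowest arrays, and the mutant mean of 8.02 ± 0.45 and labelled overexpression mean of 8.01 ± 0.13 were within 1 SD of each other. The Vha14-1 difference of labelled overexpression from w1118, 0.59 (adjusted p = 0.211), was -0.32 with the gene length trend removed.

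Membrane sector genes were divided between those with lower and those with higher values in labelled overexpression. Vha16-1 encodes the main proteolipid c of the rotating ring. Its brighter probe set read 9.16, 7.52 and 8.98 in w1118, 8.31, 8.19 and 7.79 in the mutant, and 6.73, 7.46 and 7.63 in labelled overexpression. The labelled overexpression arrays were below all mutant arrays, by 0.82 (SE 0.44, adjusted p = 0.342), and below the w1118 mean by 1.28 (SE 0.44, adjusted p = 0.112). Its other probe set read 7.09, 7.76 and 7.54 in w1118, 8.68, 7.52 and 8.20 in the mutant, and 7.39, 7.11 and 7.26 in labelled overexpression. Both probe sets gave lower values in labelled overexpression than in the mutant (-0.88 for the other probe set, SE 0.30, adjusted p = 0.195). Mutant minus w1118 was -0.46 with the brighter and 0.67 with the other, so the 2 probe sets disagree in sign there. Labelled overexpression minus w1118 was only -0.21 with the other probe set (SE 0.30, limma adjusted p = 0.63). On w1118 replicate 2 the other probe set was 0.45 above the mean of replicates 1 and 3.

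VhaAC39-1, subunit d, joins the proteolipid ring to the central rotor. It read 6.22, 4.22 and 6.03 in w1118, 5.33, 5.28 and 4.98 in the mutant, and 3.62, 4.38 and 4.10 in labelled overexpression. Labelled overexpression lay below every mutant array, by 1.17 (SE 0.49, adjusted p = 0.259), and 1.46 below the w1118 mean (SE 0.49, adjusted p = 0.109), with w1118 replicate 2 inside its range. VhaPPA1-1, the c″ proteolipid of the ring, read 7.03, 7.30 and 7.02 in w1118, 7.82, 7.18 and 7.52 in the mutant, and 7.40, 7.43 and 7.40 in labelled overexpression. Its difference of 0.29 from w1118 (SE 0.17, adjusted p = 0.259) came without overlap, but it was -0.03 after cyclic loess normalization and -0.07 with the gene length trend removed.

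Subunit a, which lines the path of the protons beside the ring and directs the pump to its membrane, has several genes. Vha100-1 read 5.42, 5.49 and 5.44 in w1118, 5.89, 5.61 and 5.95 in the mutant, and 5.44, 5.63 and 5.56 in labelled overexpression. It was the only gene of the family whose mutant and w1118 arrays did not overlap, with a mutant minus w1118 difference of 0.36 (SE 0.12, adjusted p = 0.449), and the w1118 arrays here lay close together, replicate 2 included. Vha100-2 ran from 4.12 to 5.72 with overlapping groups. Vha100-4 ran from 1.07 to 2.49, and Vha100-5 from 0.66 to 2.41 with 7 arrays above background, w1118 replicates 1 and 3 being its highest at 2.41 and 1.95.

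VhaM9.7-b encodes subunit e, a very small membrane protein of V0. It read 7.54, 8.92 and 7.35 in w1118, 9.05, 8.05 and 8.37 in the mutant, and 8.46, 8.93 and 8.99 in labelled overexpression, so that w1118 replicates 1 and 3 were the lowest arrays and replicate 2 was level with labelled overexpression. Its paralogue VhaM9.7-c showed the same order, at 5.50, 7.17 and 5.42 in w1118, 7.06, 6.45 and 6.53 in the mutant, and 6.67, 6.94 and 7.19 in labelled overexpression. VhaM9.7-a ran from 4.34 to 5.48 and was lower on every labelled overexpression array than on any mutant array, by 0.58. VhaM9.7-d was near background, with 0.73, 0.96 and 0.92 in w1118, 0.90, 0.91 and 0.92 in the mutant, and 1.27, 1.12 and 1.01 in labelled overexpression. The VhaM9.7-d differences of 0.26 from w1118 and 0.22 from the mutant came without overlap but are smaller than the range of the background level itself over the arrays.

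In labelled overexpression minus mutant the accessory genes gave both extremes of the family. VhaAC45 encodes the glycoprotein Ap1, which binds V0 and is thought to guide the pump through the secretory pathway. It read 7.20, 4.37 and 7.02 in w1118, 6.22, 6.29 and 6.08 in the mutant, and 3.21, 4.29 and 4.28 in labelled overexpression. All labelled overexpression arrays lay below all others, although w1118 replicate 2 was only just above 2 of them. The means were 6.20 ± 1.59 in w1118, 6.20 ± 0.10 in the mutant and 3.93 ± 0.62 in labelled overexpression (SD, n = 3 each). The difference of -2.27 from the mutant, a 4.82-fold lower level, had an SE of 0.71 and an adjusted p of 0.174.

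VhaAC45RP is a gene related to VhaAC45 by sequence. Its levels were 4.37, 5.47 and 3.82 in w1118, 5.61, 4.63 and 5.20 in the mutant, and 7.03, 6.42 and 6.52 in labelled overexpression. Every labelled overexpression array was above every other array. The level in labelled overexpression was 4.30-fold above w1118 (log2 difference 2.10, SE 0.43, adjusted p = 0.0864) and 2.84-fold above the mutant (1.51, SE 0.43, adjusted p = 0.153). ATP6AP2, the other accessory protein gene, whose symbol the rule did not match, read 6.10 to 7.09 in w1118, 6.64 to 7.08 in the mutant and 6.75 to 6.87 in labelled overexpression, with limma adjusted p-values of 0.952, 0.696 and 0.963 in the mutant against w1118, labelled overexpression against w1118 and labelled overexpression against mutant comparisons.

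**Figure D2:**
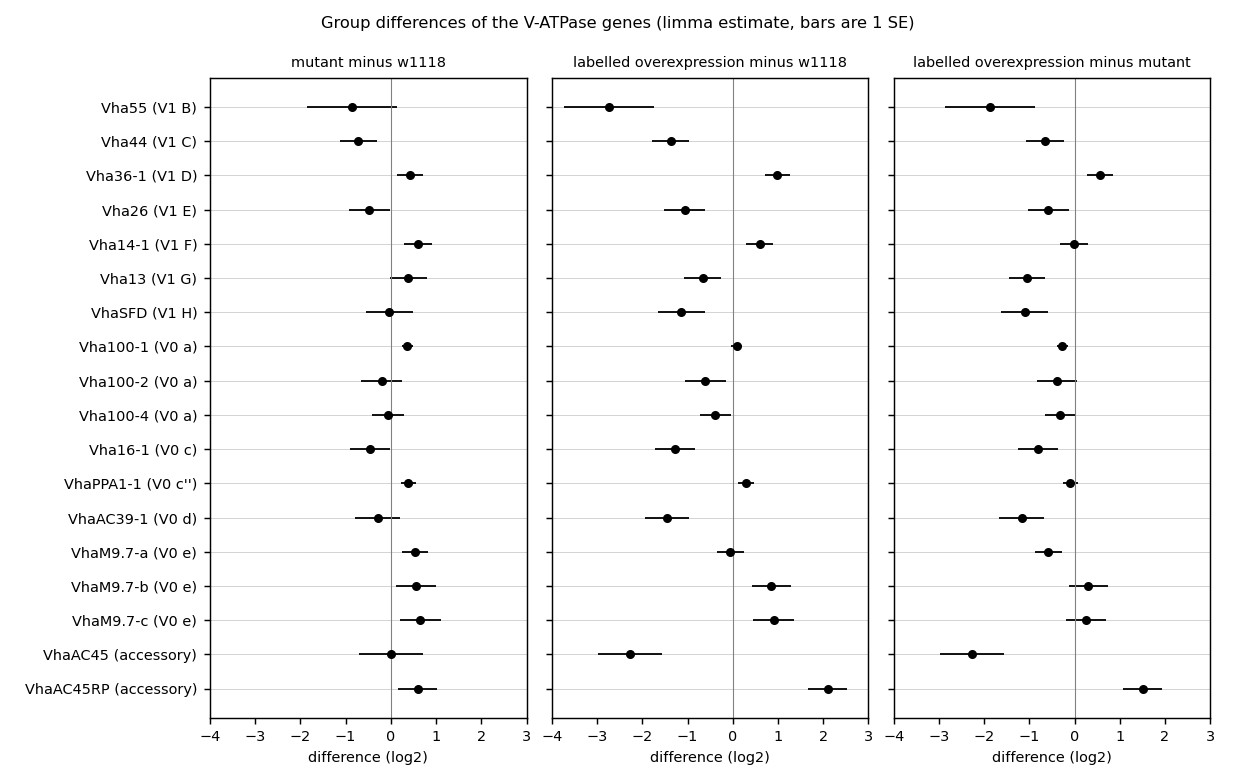
Fitted log2 differences (horizontal axis) of the 18 genes above background on all 9 arrays in the 3 comparisons, with bars of 1 SE from limma. VhaAC45 at -2.27 and VhaAC45RP at 1.51 are the ends of the labelled overexpression minus mutant panel, and Vha55 has the longest bars (SE 0.99).

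The comparison of cbt mutant and w1118 embryos asks how V-ATPase genes stand when cbt is disrupted. No V-ATPase gene passed limma at an adjusted p of 0.05, where 0.133% of all probe sets did, and the smallest adjusted p was 0.449, for Vha100-1. At an unadjusted p of 0.05, 1 gene passed, beside 9.0% of all probe sets. Mutant values were higher for 15 genes and lower for 16, and only Vha100-1 had groups without overlap, where 9.79% of probe sets did. The median difference over the 31 genes was -0.04 beside 0.01 over all probe sets, and over the 18 detected genes it was 0.18. Over the 21 genes with a mean above background it was 0.04, beside 0.02 over probe sets filtered alike.

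That count of 0 rested on w1118 replicate 2. Without that array limma called 10 V-ATPase genes, where it called 21.2% of all probe sets. The 6 lower ones in the mutant were Vha55 (-2.23), Vha44 (-1.27), Vha26 (-1.02), Vha16-1 (-0.98), VhaAC39-1 (-0.92) and VhaSFD (-0.72). For Vha16-1 this is the brighter probe set, the other having given 0.67 in the fit of all 9 arrays. The 4 higher ones were VhaM9.7-c (1.22, adjusted p = 0.00612), VhaM9.7-b (1.05), Vha14-1 (0.91) and VhaM9.7-a (0.84). Groups without overlap then numbered 18 of 31 genes, against 48.7% of all probe sets. A fit with array weights, which gave w1118 replicate 2 a weight of 0.119, called 16 genes and 28.4% of all probe sets. Those directions also rested on replicates 1 and 3. With replicate 2 as the only control array, whose spread is then taken from the other groups, 12 of the 16 named genes had the other sign (Vha55 1.87, SE 0.29, adjusted p = 0.0794), and 0 genes and 0.202% of probe sets were called. With the spike-in level as a covariate 11 of the 16 had the other sign (Vha55 1.29, SE 0.71, adjusted p = 0.584), with 0 genes and 0.0693% of probe sets called. That level was 1.91 and 2.42 on w1118 replicates 1 and 3 and 3.09 to 4.03 on all other arrays. The covariate therefore largely marks replicates 1 and 3, and its fit is not a separate check of them.

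The comparison of labelled overexpression with w1118 embryos asks how V-ATPase genes stand when a cbt transgene is driven, with the limit that cbt itself read lower there. None of the 31 genes was called by limma (0.373% of all probe sets were), with 10 at an unadjusted p of 0.05 beside 31.9% of all probe sets. The smallest adjusted p was 0.0864, for VhaAC45RP. Values were higher for 17 genes and lower for 14 (14 and 17 after cyclic loess). Medians were 0.09 over the 31 genes and over all probe sets, and -0.49 over the 18 detected genes. Over the 21 genes with a mean above background the median was -0.38, beside -0.18 over probe sets filtered alike. The arrays did not overlap for 7 genes, or 22.6% beside 29.0% of all probe sets: Vha44 and VhaAC45 were lower, and Vha36-1, VhaPPA1-1, VhaAC45RP, VhaM9.7-d and Vha36-2 were higher.

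Without w1118 replicate 2, limma called 15 of the 31 genes, where 40.6% of all probe sets were called. The 9 lower ones included Vha55 (-4.10), VhaAC45 (-3.18), VhaAC39-1 (-2.09), Vha44 (-1.93), VhaSFD (-1.82), Vha16-1 (-1.80) and Vha26 (-1.61). The other Vha16-1 probe set gave only -0.21 in the fit of all 9 arrays. The higher ones included VhaAC45RP (2.56, adjusted p = 0.000569), VhaM9.7-c (1.47), VhaM9.7-b (1.35), Vha36-1 (1.23) and Vha14-1 (0.90). Arrays then did not overlap for 24 of 31 genes, against 68.7% of all probe sets. With array weights 16 genes and 47.1% of probe sets were called, and with replicate 2 as the only control 0 genes were (0.202% of probe sets), a single control array allowing few calls. In that fit 7 of the 16 named genes had the other sign, and Vha55 was level with the control (2.43 in both). With the spike-in covariate 0 genes and 0.192% of probe sets were called, and 0 of the 16 had the other sign.

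The comparison of labelled overexpression with the mutant does not use the control arrays for its difference, although in the fit of all 9 arrays they enter its error. All 9 detected genes whose arrays did not overlap here are named above: VhaAC45, Vha55, VhaAC39-1, VhaSFD, Vha13, Vha16-1, Vha44 and VhaM9.7-a were lower in labelled overexpression and VhaAC45RP was higher. With 4 genes added that were not above background on every array, 13 of the 31 genes, or 41.9%, had arrays without overlap, beside 38.6% of all probe sets. Of the 21 genes with a mean above background 8 were lower without overlap, beside 28.5% of probe sets filtered alike, and 2 were higher, beside 21.2%. In the fit of all 9 arrays limma called 0 genes (0.256% of all probe sets), with 6 at an unadjusted p of 0.05 (18.9% of all probe sets) and a smallest adjusted p of 0.109, for Vha36-2, which is below background in all groups. The median difference was -0.05 over the 31 genes beside 0.08 over all probe sets, and -0.49 over the 18 detected genes. Over the 21 genes with a mean above background it was -0.40, beside -0.11 over probe sets filtered alike.

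Fitted on these 2 groups alone, the same differences gave 7 calls, where 13.8% of all probe sets were called. Vha55 fell by 1.87 (SE 0.21, adjusted p = 0.00722) and VhaAC45 by 2.27 (SE 0.30, adjusted p = 0.00968). VhaAC39-1, VhaSFD and Vha44 were also called lower (adjusted p = 0.0203, 0.0204 and 0.0269), and VhaAC45RP was called higher (adjusted p = 0.0215), as was Vha36-2 below background. With all 3 groups but without w1118 replicate 2, limma called 8 genes, where 16.0% of all probe sets were called, the added one being Vha13 (-1.06, adjusted p = 0.0496). With the spike-in level of each array as a covariate it called 8 as well (16.6% of probe sets), and with array weights 8 (20.3%). In every setting that gave calls the same 6 genes were among them: Vha55, VhaSFD, VhaAC39-1, VhaAC45, VhaAC45RP and Vha36-2. The fit of all arrays and every other alternative called 0 genes, including other normalizations, the replicate block and leaving out any other array. The settings with calls share the same 6 arrays and are grouped here because they gave calls. Their agreement is therefore not a separate check of these genes. For this comparison the fit of 2 groups and the fit with w1118 replicate 2 as the only control are the same fit, since a lone array adds nothing to the error.

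The V-ATPase genes followed the division of the control arrays. Of the 18 detected genes 10 were lower on w1118 replicate 2 than on the mean of replicates 1 and 3, and 8 were higher. Vha55 was lower by 4.11, VhaAC45 by 2.75, VhaSFD by 2.05 and VhaAC39-1 by 1.91, whereas VhaM9.7-c was higher by 1.71, VhaM9.7-b by 1.48 and VhaAC45RP by 1.38. For 11 of the 18 genes the level on w1118 replicate 2 was within the range of the arrays labelled overexpression, and for 6 it was within the range of the mutant arrays. For 13 the mutant mean was between the mean of w1118 replicates 1 and 3 and that of labelled overexpression.

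Averaged over the 18 genes, w1118 replicate 2 differed by 0.24 to 0.45 from the arrays labelled overexpression, by 0.54 to 0.82 from the mutant arrays and by 1.44 to 1.46 from the other w1118 arrays (absolute log2 differences). The same distances over probe sets with a mean above background, a looser filter than that of the 18 genes, were 0.38 to 0.52, 0.54 to 0.67 and 1.12 to 1.14. Control replicates 1 and 3 differed from each other by 0.18 over the V-ATPase genes and by 0.35 over those probe sets. The array nearest in V-ATPase levels to w1118 replicate 2 was therefore one labelled overexpression.

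**Figure D3:**
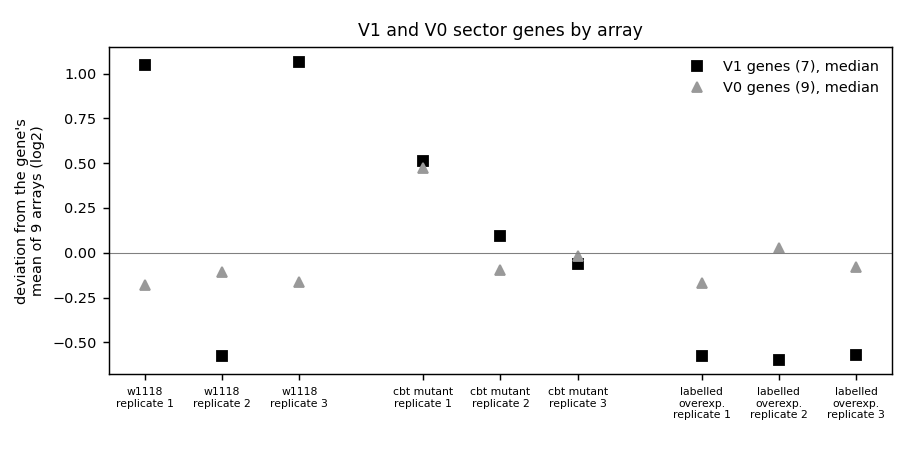
Median deviation from each gene's mean of 9 arrays (vertical axis, log2) for the 7 detected V1 genes and the 9 detected V0 genes on each array. V1 medians are 1.05 and 1.07 on w1118 replicates 1 and 3 and lie between -0.60 and -0.57 on w1118 replicate 2 and the labelled overexpression arrays.

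The median of the V1 genes and that of the V0 genes were followed over the arrays as a description, and the difference between sectors was not tested. The V1 median deviation ran from -0.60 to 1.07, whereas that of V0 ran from -0.18 to 0.47. The V1 median exceeded the V0 median by 1.23 on each of w1118 replicates 1 and 3. It was below it by 0.47 on w1118 replicate 2 and by 0.41 to 0.62 on the arrays labelled overexpression, and on the mutant arrays the difference ran from -0.04 to 0.19. Both medians hold members with opposite differences on w1118 replicate 2. Of V1, Vha14-1 (0.92) and Vha36-1 (0.72) were higher there and the other 5 genes lower. Of V0, Vha16-1 and VhaAC39-1 were lower and the 3 detected VhaM9.7 genes higher. The other Vha16-1 probe set, not used in these medians, was higher there by 0.45.

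**Figure D4:**
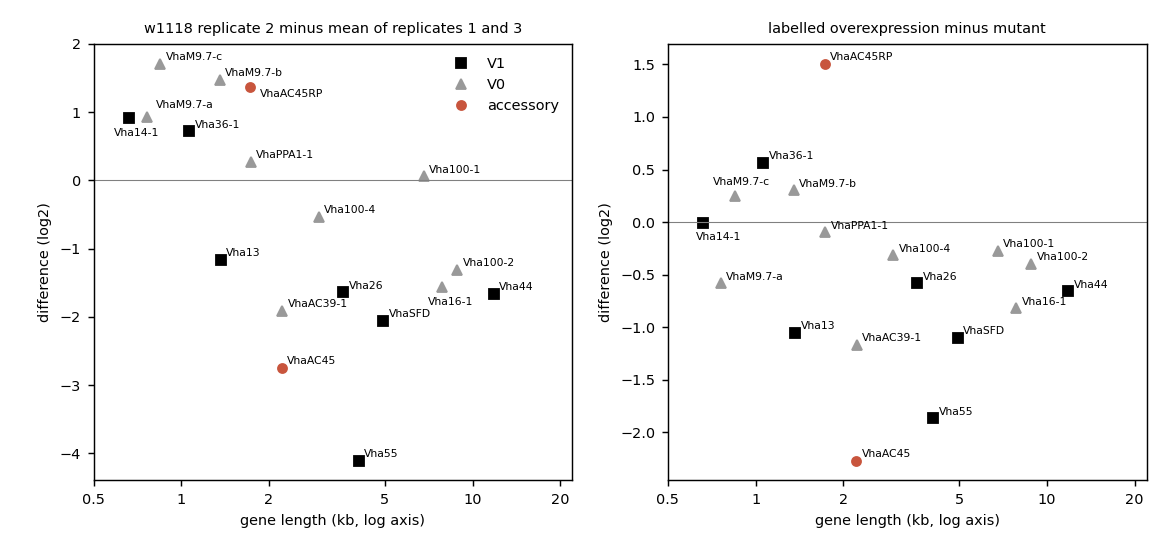
Log2 difference (vertical axis) against gene length in kb (horizontal axis, log scale) for the 18 detected genes, each point 1 gene. In the left panel (w1118 replicate 2 minus the mean of replicates 1 and 3) VhaM9.7-c (1.71) and VhaM9.7-b (1.48) are at the short, upper end and Vha55 (-4.11) is lowest.

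Gene length, from the first to the last base of the gene including introns in the RefSeq annotation of Release 6 plus ISO1 MT, ran along with these differences. For w1118 replicate 2 minus the mean of replicates 1 and 3, Spearman's rho with gene length was -0.68 over the 18 detected genes. It was -0.41 over the 8647 of 10194 probe sets with a mean above background, a looser filter, that have a length. The 3 detected VhaM9.7 genes and Vha14-1 are short (659 bases for Vha14-1) and were higher on replicate 2, whereas Vha55 (4068 bases), VhaSFD (4944) and Vha44 (11825) were lower. VhaAC45 (2214 bases) and VhaAC45RP (1728) are alike in length and differed in opposite directions. The rho was -0.84 for mutant minus w1118 (-0.52 over the probe sets), -0.61 for labelled overexpression minus w1118 (-0.36) and -0.47 for labelled overexpression minus mutant (-0.10). These points share arrays, and the comparisons share groups. The median gene length was 3594 bases for V1 and 2220 for V0.

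The remaining 13 genes were not above background on every array, and most of them are paralogues of a subunit with a brighter gene. The subunit a gene Vha100-5, above background on 7 arrays, was among the genes called lower in labelled overexpression than in w1118 without w1118 replicate 2 (-1.28, adjusted p = 0.0104). Vha36-2, a paralogue of subunit D, lay below background on every array, with means of 0.37 ± 0.03 in w1118, 0.31 ± 0.06 in the mutant and 0.78 ± 0.10 in labelled overexpression (SD, n = 3 each). Its arrays labelled overexpression did not overlap with the others, but as no group was above background, no fold is given. The proteolipid paralogues Vha16-2 to Vha16-5 ran from 0.23 to 1.24 over the arrays. In the RefSeq annotation, Vha16-2 and Vha16-3 are direct neighbours among protein-coding genes, as are Vha100-2 and Vha100-4, and VhaPPA1-1 and VhaPPA1-2 have 1 gene between them. In the last of these pairs only VhaPPA1-1 was above background on every array, while both Vha100-2 and Vha100-4 were.

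**Figure D5:**
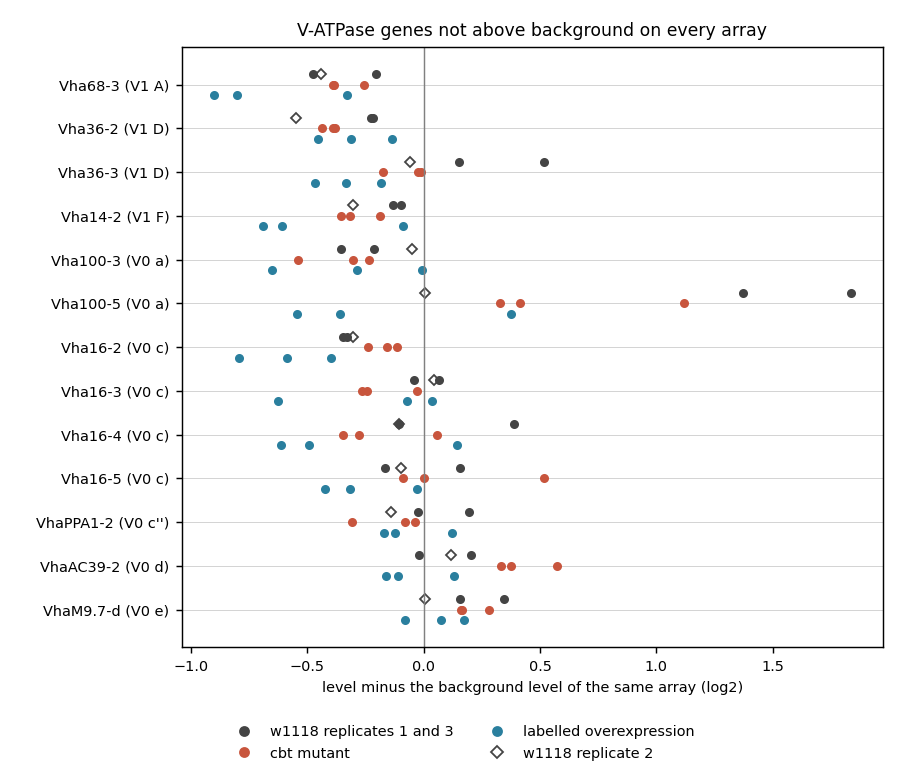
Log2 level minus the background level of the same array (horizontal axis) for the 13 V-ATPase genes that were not above background on all 9 arrays, each point 1 array. Vha36-2 and Vha68-3 lie left of 0 on every array, and Vha100-5 is farthest right on w1118 replicates 1 and 3.

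Genes of lists drawn up around the pump were counted, the lists being chosen with earlier results of these data known. Whether each listed gene acts on the pump, wkd included, was not tested. Of the assembly list 3 of 8 genes were measured (Rbcn-3B of the RAVE complex, CG5969 and wkd), and limma called 0 in each comparison. CG5969 read 7.04 to 7.18 in labelled overexpression and 6.54 to 6.68 in the mutant, with no overlap (difference 0.49, SE 0.36, adjusted p = 0.462). The list's medians were 0.08 for mutant minus w1118, -0.57 for labelled overexpression minus w1118 and -0.65 for labelled overexpression minus mutant. With 3 genes, each of these medians is the value of wkd. In both comparisons of labelled overexpression Rbcn-3B had the same sign as wkd and CG5969 the opposite sign.

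Of 24 lysosomal hydrolase and membrane protein genes 16 were measured, and limma called 1. Ppt1, a palmitoyl-protein thioesterase of the lysosome, read 4.50, 4.77 and 4.90 in w1118, 5.46, 5.70 and 5.61 in the mutant, and 3.75, 4.17 and 4.48 in labelled overexpression. It fell by 1.45 from mutant to labelled overexpression (SE 0.20, adjusted p = 0.0438), and all 3 groups were apart. Hexo2, a hexosaminidase, read 5.42 to 5.49 in labelled overexpression against 2.62 to 4.03 in w1118 (2.14, SE 0.38, adjusted p = 0.0719). The medians of this list were 0.21, -0.58 and -0.43 in the 3 comparisons in the order above.

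Of 31 genes for endosomes, ion counter-transport and lysosomal nutrient signalling 24 were measured and limma called 0 in each comparison, with medians of 0.05, -0.11 and -0.28. At the smallest p-values of this list, gig, the fly TSC2, was 1.07 below w1118 in labelled overexpression (SE 0.17, adjusted p = 0.0552) and Lamtor1, of the complex that anchors nutrient signalling to the lysosome, was 1.57 below it (SE 0.40, adjusted p = 0.0957). For both genes all labelled overexpression arrays were below all arrays of the other groups. Lamtor3 of the same complex, named after its values were seen, had the opposite difference, 2.01 above w1118 (SE 0.65, adjusted p = 0.104), also without overlap. Mitf, named for its known role and not by the rule for named genes, lay between 0.29 and 0.90, at or near background.

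Markers of the embryo stages and of several cell types, only some of them chosen as rich in the pump, were read beside these results. The 9 measured of 16 markers of the labelled embryo stages were above background on all arrays, with medians of -0.90, -1.23 and -0.06 in the 3 comparisons. Their summed level on the linear scale was 1037, 359 and 925 on w1118 replicates 1, 2 and 3, 268 to 474 in the mutant and 310 to 350 in labelled overexpression. Of 15 Malpighian tubule markers 13 were measured, with sums of 372, 216 and 415 on w1118 replicates 1, 2 and 3, 171 to 215 in the mutant and 202 to 231 in labelled overexpression. For 8 of 10 nephrocyte and garland cell markers the sums were 648, 165 and 645 in w1118, 129 to 226 in the mutant and 146 to 175 in labelled overexpression. For 6 of 9 muscle markers they were 304, 14.1 and 229 in w1118, 28.5 to 76.4 in the mutant and 15.5 to 18.1 in labelled overexpression. By these sums w1118 replicate 2 was below replicates 1 and 3 and near labelled overexpression. For the stage, tubule and nephrocyte markers it also lay in or next to the mutant range, and for the muscle markers below that range. The V-ATPase genes divided the same arrays in both directions. Of the 18 detected genes 10 were lower on replicate 2 than on the mean of replicates 1 and 3, and 8 were higher. A sum follows its brightest genes, such as pyd and rst for nephrocytes and salm and tsh for tubules. Some members were higher on replicate 2 than on replicates 1 and 3, eya, Klf15, Irk3, pyd3 and Alp4 among them. For 9 of 12 midgut markers the sums were 129, 105 and 167 in w1118, 92.9 to 141 in the mutant and 114 to 145 in labelled overexpression.

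All 19 testis markers were measured, 13 of them above background on no array (the sperm genes dj and Mst77F among them), with sums of 29.3 to 40.3 over all arrays. Of 8 maternal and germ cell markers 6 were measured, with sums of 86.0, 27.4 and 81.7 on w1118 replicates 1, 2 and 3, 42.4 to 58.4 in the mutant and 25.5 to 33.7 in labelled overexpression. In each marker list limma called 0 genes in each comparison. The part of cell type makeup in the V-ATPase differences was not tested.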

How the data were processed

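The authors deposited log2 expression levels, 1 for each probe set on each array. The tools are RMA, affy and limma per the submitters' processing notes, which give no versions. Not given in the sources used here are the chip definition file, any filter and the genome build. Of 18952 probe sets 183 Affymetrix controls were left out, and 18769 were tested. Symbols came from the platform annotation, 13647 probe sets having 1 symbol, 402 several and 4720 none. All 31 V-ATPase symbols are current in RefSeq (Release 6 plus ISO1 MT), which also gave gene lengths and neighbours.

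Group means of all 9 arrays were fitted with limma 3.58.1 in R 4.3.3 (lmFit, eBayes), without covariates. Benjamini-Hochberg adjustment ran over all tested probe sets, with a threshold of 0.05. The fit was tested on simulated data. An SE is that of the fitted difference, a fold is 2 to the power of it, and 3 arrays a group limit the precision. Alternatives changed the normalization, the dim probe set filter, the arrays and groups in the fit, array weights, the poly-A spike-in covariate, a gene length trend (lowess), the probe set per gene, the member rule and a replicate block. Whether the replicate numbers pair the samples could not be settled.

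Values in every array are given for the brightest gene of each subunit, called genes, and per comparison and direction the 3 largest differences without overlap. Further genes whose values are printed were added after their values were seen. Of other lists the called genes and those with the smallest p-values are named. The members, the 10 lists and the rules were chosen with earlier results of these data known. The lists are assembly factors, lysosomal genes, endosome and nutrient signalling genes, and markers of embryo stage, testis, maternal RNA, Malpighian tubule, nephrocyte, midgut and muscle. Marker levels were summed on the linear scale.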

Additional observations from a re-analysis of the deposited data

How the results depend on the processing

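The limits of the V-ATPase results are 3 arrays a group, 1 control array that stands apart, and 13 of 31 genes not above background on every array. The number of genes called was 0 in each comparison in the fit of all 9 arrays. Leaving out 1 array at a time gave 0 to 10 calls for mutant against w1118, 0 to 15 for labelled overexpression against w1118 and 0 to 8 for labelled overexpression against mutant, the highest counts coming without w1118 replicate 2. Array weights gave 16, 16 and 8 calls. For labelled overexpression against mutant, the 2 groups alone gave 7 calls, w1118 replicate 2 as the only control gave the same 7 by construction and the spike-in covariate gave 8. These fits differ in the arrays used, their weights or the covariate, which changes the error and in several of them the fitted differences. The causes were not tested.

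The median of labelled overexpression minus w1118 over the genes (0.09) became -0.034 with cyclic loess, -0.38 over genes with a mean above background, -0.032 with w1118 replicate 2 as the only control and -0.045 with the spike-in covariate. That of labelled overexpression minus mutant (-0.05) became -0.18 with equal array medians, where the median of all probe sets went from 0.08 to -0.04, -0.40 over genes with a mean above background and 0.0018 with the spike-in covariate. Leaving out 1 array at a time, it ran from -0.16 to 0.032. The median of mutant minus w1118 (-0.04) was 0.056 with the spike-in covariate and ran from -0.066 to 0.063 with 1 array left out, so the sign of these medians is not settled.

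The replicate number as a block gave 0 calls in each comparison, with medians of -0.04, 0.09 and -0.05. The correlations between the deviations of samples with the same number ran from -0.37 to 0.26. For labelled overexpression and mutant they were 0.15, 0.26 and -0.09 for replicates 1, 2 and 3. They show no steady pairing, but with 3 arrays a group and w1118 replicate 2 apart they cannot exclude one.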
